A study of Mus musculus and Homo sapiens with 24 samples.

Results

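This account follows 44 target genes of the hypoxia-inducible factors (HIFs) that do not encode glycolytic enzymes or glucose transporters, in RNA-Seq libraries of HepG2 cells, a human hepatoma line. The members were taken by symbol from a list of known HIF targets, and all 44 were found among the 28278 genes of the deposited count table. The list was chosen with earlier results of these data known, so contrasts of the members with all genes are a description. STC1, which encodes the secreted glycoprotein stanniocalcin, had between 0 and 2 counts in every library and was not tested. The other 43 were tested in every comparison.

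HepG2 cells were grown in EMEM with serum, washed and given no agent (control), 50 µM CoCl2, 25 nM β-estradiol (estrogen) or both agents (CoCl2+estrogen) for 4 h, with 3 libraries (A, B and C) in each of the 4 groups. The study's methods for the line place a night without serum before treatment, a step that the labels do not name. All 4 groups share the line, and the vehicle of the estradiol was not given in the sources used here. CoCl2 is a chemical mimic of hypoxia that stabilizes HIF1α while oxygen is present, and the study used it to ask how hypoxia and estrogen act together on liver cells. Nothing in the labels says that the libraries of a group came from separate cultures, so the p-values measure the spread between these libraries, which may be technical. Total counts ran from 13592637 to 21701480 per library. CoCl2 replicate B had the lowest total and stood apart from its group (chi-square per degree of freedom over genes of 61.4 and 42.9 against its group mates, where all other pairs of replicates lay between 6.16 and 16). Without it, 36 members were still called in CoCl2 against control. The 8 hepatocyte markers examined were all present, and together they held 27300 to 30700 CPM (counts per 1000000 of the scaled library total) in the libraries without estrogen and 14700 to 17200 CPM in those with it. Each of the 8 fell with estrogen, where 34.2% of all 16281 genes tested fell. Of the 12 endothelial, leukocyte and fibroblast or stellate markers, KDR, PTPRC, CD3E, COL3A1 and DCN had no count in any library. The endothelial list summed to 0.824 to 3.21 CPM. The sums of the leukocyte list, led by CD68, and the fibroblast or stellate list lay within 19.9 to 37.5 CPM without and 7.26 to 18.9 CPM with estrogen. COL1A1 led the fibroblast or stellate list without estrogen (mean 20.9 CPM in control) and PDGFRB led it with estrogen. In estrogen libraries the means were 1.15 CPM for COL1A1 and 7.52 CPM for PDGFRB.

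HIFs are dimers of an oxygen-regulated α subunit and the constant partner ARNT. When oxygen is present, prolyl hydroxylases of the EGLN family mark the α subunit for destruction through VHL, and when oxygen or the iron these enzymes use is short, the dimer accumulates and binds hypoxia response elements. Beside the shift to glycolysis, its targets include genes for blood vessel growth, red cell production, pH control, collagen modification, mitophagy, lipid storage and chromatin demethylation, and the liver is a site of many of these functions.

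**Figure D1:**
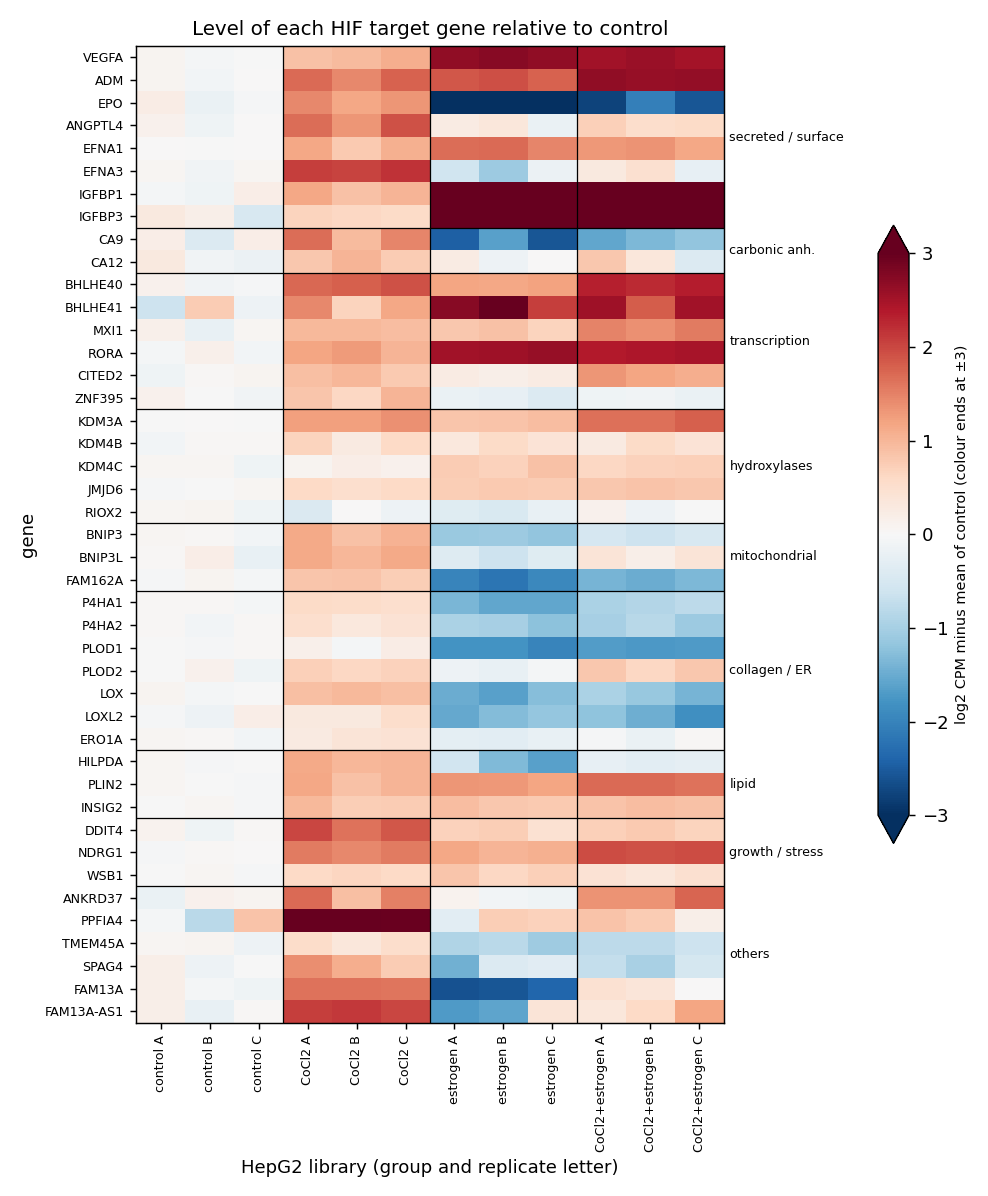
Level of the 43 tested members (vertical axis, grouped by role) in each of the 12 HepG2 libraries (horizontal axis), as log2 CPM minus the mean of the 3 control libraries; red is higher and blue lower than control, and the colours end at 3 in either direction. The CoCl2 libraries are red for nearly all members, whereas the estrogen libraries hold deep red (VEGFA, IGFBP1, IGFBP3, RORA) beside deep blue (EPO, CA9, FAM162A, PLOD1, FAM13A).

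CoCl2 alone raised most of the set. Against control, 36 of the 43 tested members rose and 0 fell, whereas over all 15872 genes tested 1.31% rose and 0.132% fell (edgeR's quasi-likelihood test, Benjamini-Hochberg adjusted p of at most 0.05, named "adjusted p" from here on). The median log2 fold change of the members was 1.02, against -0.0033 for all genes. Because the members were chosen with earlier results of these data known, this contrast is a description and no test of the set. All of the mitochondrial genes (3 of 3), the lipid genes (3 of 3), the growth and stress regulators (3 of 3) and the 6 members with other functions rose, as did 7 of 8 tested genes for secreted or cell surface proteins, 5 of 6 transcription regulators, 5 of 7 genes for collagen modification and ER oxidation, 3 of 5 oxygen-dependent hydroxylases and 1 of 2 carbonic anhydrases. IGFBP3, CA12, BHLHE41, KDM4C, RIOX2, PLOD1 and LOXL2 did not pass the test. The call held for 30 of the 36 whichever of the 6 libraries was left out. The call of ERO1A, KDM4B, P4HA2, TMEM45A, SPAG4 and ANKRD37 was lost without any one of control A, B or C, that of ERO1A also without CoCl2 C, that of SPAG4 without CoCl2 A and that of the other 4 without CoCl2 A or C, at adjusted p values from 0.0502 to 0.197. With library totals in place of TMM scaling, 31 members rose.

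Estrogen alone divided the set. Against control, 19 members rose and 16 fell, where 34.7% of all 16281 genes tested rose and 34.2% fell, so the shares of members called in either direction were near the background, in a comparison that moved most genes. The median log2 fold change of the members was 0.055, and its sign depended on the scaling: it was -0.071 with library totals alone, a scaling that moved the median of all genes by -0.129. By role, estrogen raised 5 of 8 genes for secreted or surface proteins and lowered 1, raised 5 of 6 transcription regulators and lowered 1, raised 4 of 5 hydroxylases and lowered 1, and raised all 3 growth and stress regulators. It lowered all 3 mitochondrial genes and 6 of 7 genes for collagen modification and ER oxidation, and raised none of either group. These role groups were not compared by a test. CITED2 lost its call without control A, estrogen A or estrogen C (adjusted p = 0.0736 to 0.131) and with library totals alone (adjusted p = 0.324), and ZNF395 without control A (adjusted p = 0.0759).

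Among the secreted factors, VEGFA, the main growth factor of blood vessel endothelium, stood at 73.2, 67.4 and 68.5 CPM in control, 128, 134 and 147 in CoCl2, 445, 465 and 440 in estrogen and 400, 420 and 392 in CoCl2+estrogen libraries. The 4 groups did not overlap, and the order rose from control over CoCl2 and CoCl2+estrogen to estrogen. VEGFA rose with CoCl2 (log2 fold change 0.98 ± 0.077, adjusted p = 4.92e-05; errors of log2 fold changes are standard errors) and with estrogen (log2 fold change 2.69 ± 0.062, adjusted p = 5.46e-14). With both agents it was 2.50 ± 0.062 above control on the log2 scale (adjusted p = 6.42e-13).

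ADM encodes adrenomedullin, a vasodilator peptide. Its level was 8.57, 7.6 and 8.11 CPM in control, 26.8, 22.4 and 28.2 in CoCl2, 29.6, 31.1 and 28 in estrogen and 52, 50.1 and 50.8 in CoCl2+estrogen libraries. CoCl2 and estrogen libraries overlapped, and CoCl2+estrogen libraries were the highest. ADM rose with CoCl2 (log2 fold change 1.68 ± 0.11, adjusted p = 1.44e-05), with estrogen (log2 fold change 1.87 ± 0.10, adjusted p = 3.51e-10) and with both agents (log2 fold change 2.62 ± 0.089, adjusted p = 1.05e-11).

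EPO, the hormone that drives red cell production, had 4.02, 2.95 and 3.34 CPM in control, 9.38, 7.77 and 8.74 in CoCl2, 0, 0.143 and 0.207 in estrogen and 0.399, 0.732 and 0.481 in CoCl2+estrogen libraries. The estrogen libraries held only 0, 2 and 3 counts, so the size of the fall with estrogen is given with a floor. With 3 counts set in each estrogen library, mean EPO was 17.5-fold lower than in control. This value leaves out the counting error of the control libraries and is no lower limit. The fall passed the test (adjusted p = 2.13e-07). CoCl2 alone raised EPO (log2 fold change 1.34 ± 0.16, adjusted p = 0.00117). With both agents EPO was above all estrogen libraries and below all control libraries, and fell by 2.68 ± 0.30 on the log2 scale against control (adjusted p = 2.17e-06).

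IGFBP1 and IGFBP3 encode binding proteins of insulin-like growth factors, and IGFBP1 is made mainly in the liver. IGFBP1 had 71.8, 68.1 and 85 CPM in control, 167, 137 and 153 in CoCl2, 5960, 5960 and 5200 in estrogen and 4090, 4170 and 3830 in CoCl2+estrogen libraries. Estrogen libraries were the highest and held 0.501% to 0.578% of all their counts in this gene, against 0.00713% to 0.00903% in control. IGFBP1 rose with CoCl2 (log2 fold change 1.03 ± 0.10, adjusted p = 0.000248) and with estrogen (log2 fold change 6.25 ± 0.10, adjusted p = 9.88e-16). IGFBP3 had 1.25, 1.15 and 0.691 CPM in control, 1.66, 1.61 and 1.56 in CoCl2, 34.9, 30.4 and 30.7 in estrogen and 34, 32.4 and 30.1 in CoCl2+estrogen libraries. Its estrogen and CoCl2+estrogen libraries overlapped far above the rest. It rose with estrogen (log2 fold change 4.93 ± 0.16, adjusted p = 1.37e-12), and its difference with CoCl2 alone was 0.64 ± 0.32 (95% interval -0.066 to 1.34, adjusted p = 0.493).

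The ephrins EFNA1 and EFNA3 are surface ligands of Eph receptors. EFNA1 stood at 49.1, 48.1 and 49.1 CPM in control, 109, 83.6 and 102 in CoCl2, 156, 158 and 134 in estrogen and 121, 124 and 110 in CoCl2+estrogen libraries. No groups overlapped, and estrogen libraries were the highest. EFNA1 rose with CoCl2 (log2 fold change 1.02 ± 0.10, adjusted p = 0.000204) and with estrogen (log2 fold change 1.62 ± 0.074, adjusted p = 4.61e-11). EFNA3 rose with CoCl2 (log2 fold change 2.17 ± 0.18, adjusted p = 5.79e-05), from 1.5 ± 0.103 to 6.73 ± 0.33 CPM (SD, n = 3), and its difference with estrogen did not pass the test (log2 fold change -0.63 ± 0.34, adjusted p = 0.112). ANGPTL4, an inhibitor of lipoprotein lipase, was at 1.78 ± 0.161 CPM in control, 5.84 ± 1.19 in CoCl2 and 1.97 ± 0.4 in estrogen libraries (SD, n = 3). It rose with CoCl2 (log2 fold change 1.73 ± 0.21, adjusted p = 0.000962) and did not pass the test with estrogen (log2 fold change 0.16 ± 0.26, adjusted p = 0.611).

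**Figure D2:**
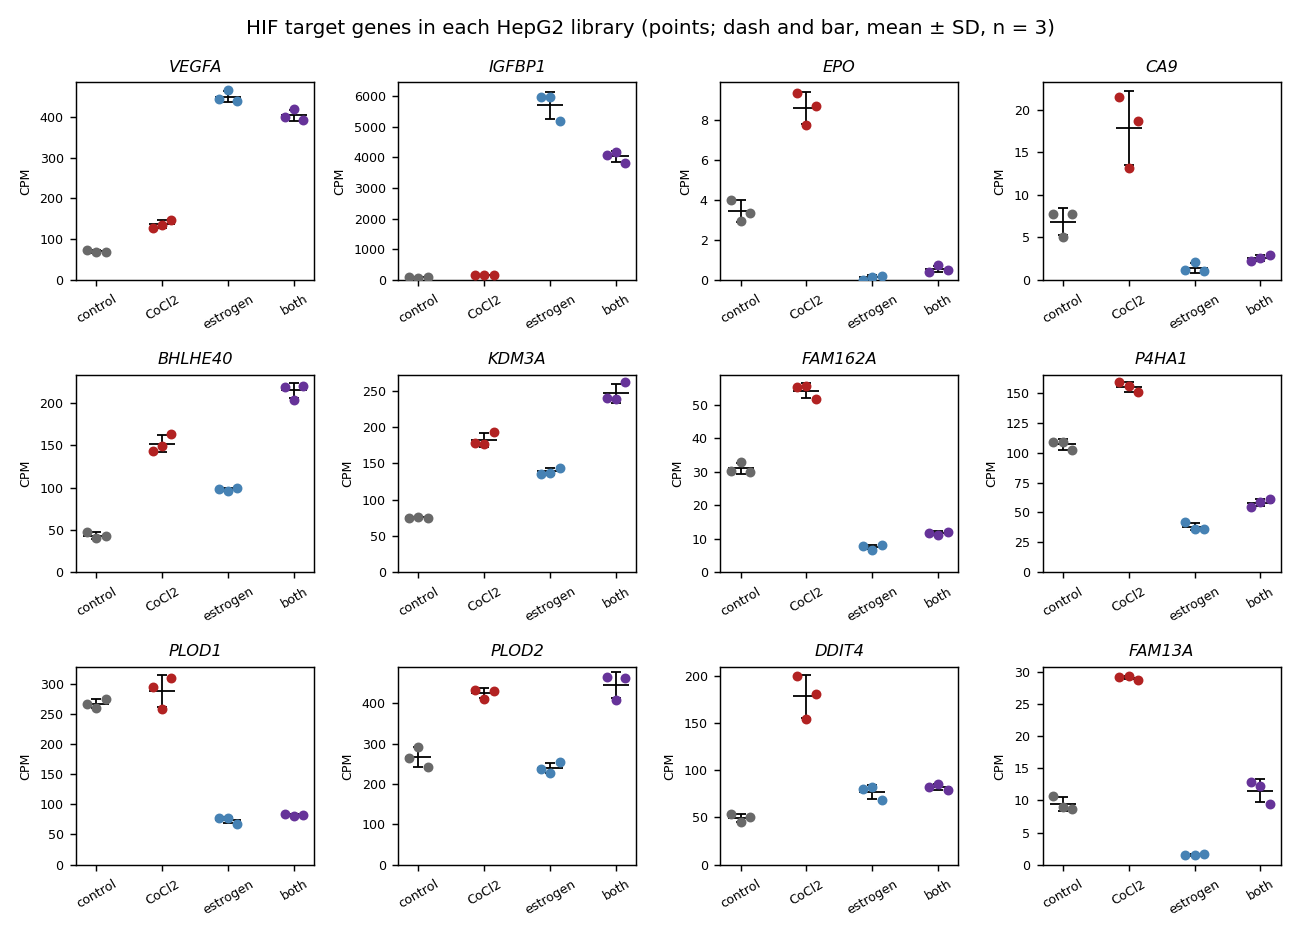
CPM (vertical axes, each starting at 0) of 12 members in the 3 libraries of each HepG2 group (horizontal axes, "both" being CoCl2+estrogen); points are libraries, dashes and bars are mean ± SD. VEGFA and IGFBP1 are highest with estrogen, EPO and CA9 lowest, BHLHE40 and KDM3A highest with both agents, and FAM13A falls to between 1.45 and 1.73 CPM with estrogen but returns to between 9.48 and 12.9 with both.

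Carbonic anhydrases 9 and 12 are membrane enzymes that act in pH control. CA9 had 7.73, 4.98 and 7.71 CPM in control, 21.5, 13.1 and 18.7 in CoCl2, 1.11, 2.07 and 1.04 in estrogen and 2.2, 2.56 and 2.89 in CoCl2+estrogen libraries. All groups were apart, with CoCl2 highest and estrogen lowest, and the spread was wide in CoCl2, where replicate B was the lowest. CA9 rose with CoCl2 (log2 fold change 1.41 ± 0.20, adjusted p = 0.00405), fell with estrogen (log2 fold change -2.28 ± 0.26, adjusted p = 1.5e-06) and fell with both agents against control (log2 fold change -1.44 ± 0.21, adjusted p = 2.69e-05). CA12 had 0.523, 0.369 and 0.345 CPM in control, 0.804, 0.953 and 0.778 in CoCl2, 0.501, 0.356 and 0.415 in estrogen and 0.798, 0.549 and 0.275 in CoCl2+estrogen libraries. Its neighbouring groups overlapped in the order of their means, and it was called in no comparison, the only tested member of which this was true. Its difference with CoCl2 was 1.02 ± 0.43 (adjusted p = 0.404).

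Among the transcription regulators, BHLHE40 encodes a repressor of the circadian clock and of differentiation. Its level was 47.3, 39.9 and 42.4 CPM in control, 143, 149 and 163 in CoCl2, 98.5, 96.1 and 99.7 in estrogen and 219, 204 and 220 in CoCl2+estrogen libraries. The groups did not overlap and rose in the order control, estrogen, CoCl2 and CoCl2+estrogen. BHLHE40 rose with CoCl2 (log2 fold change 1.82 ± 0.087, adjusted p = 1.59e-06), with estrogen (log2 fold change 1.19 ± 0.073, adjusted p = 1.16e-09) and with both agents (log2 fold change 2.28 ± 0.074, adjusted p = 6.89e-12). RORA, a nuclear receptor that acts in clock and lipid control, had 17.8, 20.6 and 17.6 CPM in control, 42.8, 45 and 38 in CoCl2, 108, 110 and 114 in estrogen and 97.5, 101 and 105 in CoCl2+estrogen libraries. Its order differed from that of BHLHE40, since estrogen libraries were above CoCl2+estrogen libraries. RORA rose with CoCl2 (log2 fold change 1.17 ± 0.10, adjusted p = 6.68e-05) and with estrogen (log2 fold change 2.56 ± 0.077, adjusted p = 5.75e-13).

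BHLHE41, the paralog of BHLHE40, was near the lower limit of detection, at 1 to 29 counts per library, with 0.0523, 0.323 and 0.115 CPM in control, 0.59, 0.293 and 0.458 in CoCl2, 1.61, 1.92 and 0.968 in estrogen and 1.4, 0.793 and 1.37 in CoCl2+estrogen libraries. Control and CoCl2 libraries overlapped below the others. It rose with estrogen (log2 fold change 3.09 ± 0.56, adjusted p = 0.000131), and with CoCl2 its difference was 1.40 ± 0.69 (adjusted p = 0.476). MXI1, an antagonist of MYC, and CITED2, which competes with HIF1α for its coactivators, rose with each agent: by 0.97 and 0.91 on the log2 scale with CoCl2 (adjusted p = 0.000831 and 0.000335) and by 0.79 and 0.22 with estrogen (adjusted p = 2.56e-05 and 0.0214). ZNF395, a zinc finger factor, rose with CoCl2 (log2 fold change 0.84 ± 0.10, adjusted p = 0.00134) and was the only regulator of the 6 to fall with estrogen (log2 fold change -0.28 ± 0.089, adjusted p = 0.0104).

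The oxygen-dependent hydroxylases are dioxygenases that need iron and 2-oxoglutarate. KDM3A, a demethylase of histone H3 lysine 9, had 75.3, 76.8 and 75.2 CPM in control, 178, 177 and 194 in CoCl2, 135, 137 and 144 in estrogen and 240, 239 and 263 in CoCl2+estrogen libraries. The groups did not overlap, and the level was highest with both agents. KDM3A rose with CoCl2 (log2 fold change 1.28 ± 0.066, adjusted p = 2.83e-06), with estrogen (log2 fold change 0.87 ± 0.062, adjusted p = 6.79e-09) and with both (log2 fold change 1.67 ± 0.062, adjusted p = 2.42e-11). JMJD6, a lysyl hydroxylase that acts on splicing factors, had 37.4, 38.1 and 40.1 CPM in control, 57.9, 55 and 58.4 in CoCl2, 64.5, 66.8 and 65.4 in estrogen and 67.9, 70 and 67.8 in CoCl2+estrogen libraries. Its groups did not overlap either, but the estrogen and CoCl2+estrogen libraries were close. JMJD6 rose with CoCl2 (log2 fold change 0.58 ± 0.076, adjusted p = 0.00202) and with estrogen (log2 fold change 0.77 ± 0.066, adjusted p = 5.09e-08). The histone demethylases KDM4B and KDM4C differed in their calls. KDM4B rose with CoCl2 (0.52 ± 0.10, adjusted p = 0.0323), a call that was lost without any library other than CoCl2 B (adjusted p = 0.057 to 0.197), and KDM4C did not pass the test (0.14 ± 0.083, adjusted p = 0.56). Both rose with estrogen. RIOX2, a ribosomal oxygenase, was the only tested member with a negative log2 fold change under CoCl2 (-0.18 ± 0.11, adjusted p = 0.603), and it fell with estrogen (log2 fold change -0.35 ± 0.082, adjusted p = 0.00164).

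The mitochondrial members rose with CoCl2 and fell with estrogen. BNIP3 and BNIP3L are mitophagy receptors of the outer mitochondrial membrane, and FAM162A encodes a mitochondrial protein. BNIP3 had 77.6, 76.4 and 70.4 CPM in control, 164, 138 and 155 in CoCl2, 34.5, 34.9 and 32.9 in estrogen and 52.8, 48.9 and 53.8 in CoCl2+estrogen libraries. No groups overlapped, and both groups with estrogen lay below control. BNIP3 rose with CoCl2 (log2 fold change 1.03 ± 0.079, adjusted p = 4.08e-05) and fell with estrogen (log2 fold change -1.13 ± 0.069, adjusted p = 1.1e-09). BNIP3L stood at 58.5, 65.9 and 48.9 CPM in control, 125, 115 and 127 in CoCl2, 43.6, 37.4 and 44.8 in estrogen and 74.8, 65.2 and 75.4 in CoCl2+estrogen libraries. Control and CoCl2+estrogen libraries overlapped, and estrogen libraries were below both. BNIP3L rose with CoCl2 (log2 fold change 1.09 ± 0.10, adjusted p = 0.000176) and fell with estrogen (log2 fold change -0.46 ± 0.10, adjusted p = 0.000795). FAM162A had 30.3, 32.8 and 29.9 CPM in control, 55.2, 55.7 and 51.6 in CoCl2, 7.74, 6.7 and 8.02 in estrogen and 11.8, 11 and 12.1 in CoCl2+estrogen libraries. Its groups were apart, with both estrogen groups far below control. FAM162A rose with CoCl2 (log2 fold change 0.81 ± 0.079, adjusted p = 0.00021) and fell with estrogen (log2 fold change -2.04 ± 0.11, adjusted p = 1.95e-10).

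Genes for collagen modification and ER oxidation fell with estrogen with 1 exception, PLOD2. P4HA1 and P4HA2 encode catalytic subunits of collagen prolyl 4-hydroxylase, PLOD1 and PLOD2 encode collagen lysyl hydroxylases, and LOX and LOXL2 encode the oxidases that start collagen cross-links. P4HA1 had 109, 109 and 102 CPM in control, 159, 156 and 151 in CoCl2, 41.6, 36.3 and 36.1 in estrogen and 54.9, 58.4 and 61.5 in CoCl2+estrogen libraries. Its groups did not overlap. P4HA1 rose with CoCl2 (log2 fold change 0.55 ± 0.067, adjusted p = 0.00115) and fell with estrogen (log2 fold change -1.49 ± 0.073, adjusted p = 1.07e-10). P4HA2 fell with estrogen as well (log2 fold change -1.06 ± 0.082, adjusted p = 1.82e-08).

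The lysyl hydroxylase genes did not share a pattern. PLOD1 stood at 267, 260 and 275 CPM in control, 295, 258 and 310 in CoCl2, 77.1, 77.4 and 68.1 in estrogen and 83.6, 80.5 and 81.7 in CoCl2+estrogen libraries. Control and CoCl2 libraries overlapped, and all 6 libraries with estrogen lay between 68.1 and 83.6 CPM. PLOD1 did not pass the test with CoCl2 (log2 fold change 0.11 ± 0.071, adjusted p = 0.595) and fell with estrogen (log2 fold change -1.85 ± 0.068, adjusted p = 4.15e-12). PLOD2 had 264, 292 and 242 CPM in control, 434, 411 and 431 in CoCl2, 238, 228 and 254 in estrogen and 465, 408 and 463 in CoCl2+estrogen libraries. Here control overlapped with estrogen and CoCl2 with CoCl2+estrogen, so the libraries divided by CoCl2. PLOD2 rose with CoCl2 (log2 fold change 0.69 ± 0.074, adjusted p = 0.000445) and differed by -0.15 ± 0.071 with estrogen (95% interval -0.30 to 0.0060, adjusted p = 0.0809). The difference between the paralogs was not tested.

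LOX had 11.7, 10.6 and 10.9 CPM in control, 20.9, 21.7 and 20.7 in CoCl2, 3.84, 3.49 and 4.49 in estrogen and 5.66, 5 and 4.12 in CoCl2+estrogen libraries. The CoCl2 libraries were highest, and estrogen and CoCl2+estrogen libraries overlapped below control. LOX rose with CoCl2 (log2 fold change 0.93 ± 0.095, adjusted p = 0.000288) and fell with estrogen (log2 fold change -1.49 ± 0.14, adjusted p = 1.5e-07). LOXL2 stood at 8.05, 7.37 and 9.44 CPM in control, 10.1, 10 and 12 in CoCl2, 2.78, 3.28 and 3.59 in estrogen and 3.53, 2.93 and 2.2 in CoCl2+estrogen libraries. It fell with estrogen (log2 fold change -1.37 ± 0.17, adjusted p = 2.48e-06), and its CoCl2 libraries were all above control although the difference did not pass the test (log2 fold change 0.39 ± 0.14, adjusted p = 0.322). ERO1A, the oxidase that supplies disulfide bonds in the ER, fell by 0.27 ± 0.062 on the log2 scale with estrogen (adjusted p = 0.0011).

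Of the lipid genes, PLIN2 encodes a coat protein of lipid droplets. Its level was 183, 175 and 174 CPM in control, 400, 328 and 361 in CoCl2, 444, 439 and 406 in estrogen and 577, 576 and 550 in CoCl2+estrogen libraries. The groups did not overlap, and the order rose from control to CoCl2, estrogen and CoCl2+estrogen. PLIN2 rose with CoCl2 (log2 fold change 1.04 ± 0.075, adjusted p = 2.77e-05) and with estrogen (log2 fold change 1.28 ± 0.059, adjusted p = 5.38e-11). INSIG2, which retains the sterol sensor SCAP in the ER, had 96.5, 103 and 95.1 CPM in control, 192, 164 and 165 in CoCl2, 188, 171 and 169 in estrogen and 176, 186 and 179 in CoCl2+estrogen libraries. All 9 treated libraries lay between 164 and 192 CPM, and the 3 treated groups overlapped. INSIG2 rose with CoCl2 (log2 fold change 0.84 ± 0.079, adjusted p = 0.000189) and with estrogen (log2 fold change 0.84 ± 0.066, adjusted p = 1.97e-08). HILPDA, an inhibitor of the triglyceride lipase ATGL, rose with CoCl2 (log2 fold change 1.07 ± 0.11, adjusted p = 0.000412) and fell with estrogen (log2 fold change -1.10 ± 0.22, adjusted p = 0.000342), from 7.13 ± 0.251 to 3.26 ± 1.35 CPM (SD, n = 3).

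Among the growth and stress regulators, DDIT4 encodes REDD1, an inhibitor of mTORC1. It had 53.7, 45 and 50.4 CPM in control, 199, 154 and 181 in CoCl2, 79.5, 82.2 and 67.9 in estrogen and 82.1, 84.9 and 78.6 in CoCl2+estrogen libraries. CoCl2 libraries were far above the rest, and estrogen and CoCl2+estrogen libraries overlapped. DDIT4 rose with CoCl2 (log2 fold change 1.85 ± 0.10, adjusted p = 5.26e-06), with estrogen (log2 fold change 0.63 ± 0.085, adjusted p = 9.22e-06) and with both agents (log2 fold change 0.69 ± 0.074, adjusted p = 1.29e-06). NDRG1, a stress-responsive regulator of growth and differentiation, had 71.9, 75.3 and 74.2 CPM in control, 216, 199 and 220 in CoCl2, 166, 150 and 156 in estrogen and 287, 280 and 285 in CoCl2+estrogen libraries. Its groups did not overlap and rose in the order control, estrogen, CoCl2 and CoCl2+estrogen. NDRG1 rose with CoCl2 (log2 fold change 1.53 ± 0.066, adjusted p = 7.63e-07) and with estrogen (log2 fold change 1.09 ± 0.065, adjusted p = 9.07e-10). WSB1, a substrate receptor of an E3 ubiquitin ligase, had 73.4, 77.6 and 72.2 CPM in control, 112, 117 and 112 in CoCl2, 132, 114 and 123 in estrogen and 100, 94.4 and 104 in CoCl2+estrogen libraries. CoCl2 and estrogen libraries overlapped at the top. WSB1 rose with CoCl2 (log2 fold change 0.62 ± 0.073, adjusted p = 0.000933) and with estrogen (log2 fold change 0.73 ± 0.070, adjusted p = 1.95e-07).

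FAM13A was moved by both agents. It had 10.7, 9.03 and 8.63 CPM in control, 29.2, 29.3 and 28.8 in CoCl2, 1.45, 1.5 and 1.73 in estrogen and 12.9, 12.2 and 9.48 in CoCl2+estrogen libraries. Estrogen libraries were lowest, control and CoCl2+estrogen libraries overlapped, and CoCl2 libraries were highest. FAM13A rose with CoCl2 (log2 fold change 1.63 ± 0.10, adjusted p = 8.96e-06) and fell with estrogen (log2 fold change -2.60 ± 0.18, adjusted p = 3.45e-09). FAM13A-AS1 lies on the opposite strand of FAM13A, and its counts were 3.98% to 5.08% of those of FAM13A in control and 7.44% to 8.03% in CoCl2. The share spread more widely in estrogen, from 5.27% to 35.4%, and in CoCl2+estrogen, from 4.78% to 12%. The library kit keeps strand, but whether the counting used it is not given in the sources used here, and both genes had counts that were not whole numbers, so their reads may be shared. FAM13A-AS1 rose with CoCl2 (log2 fold change 2.32 ± 0.32, adjusted p = 0.0027).

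PPFIA4, a member of the liprin-α family of scaffold proteins, had 0.157, 0.0461 and 0.403 CPM in control, 3.16, 2.86 and 2.11 in CoCl2, 0.111, 0.356 and 0.346 in estrogen and 0.399, 0.366 and 0.206 in CoCl2+estrogen libraries. Its control libraries held only 3, 1 and 7 counts, estrogen and CoCl2+estrogen libraries overlapped with them, and the CoCl2 libraries stood clear of all others. PPFIA4 rose with CoCl2 (log2 fold change 3.78 ± 0.51, adjusted p = 0.00202), and its difference with estrogen was 0.43 ± 0.86 (adjusted p = 0.661). ANKRD37, an ankyrin repeat protein, TMEM45A, a membrane protein, and SPAG4, a nuclear envelope protein of the SUN domain family, rose with CoCl2 with log2 fold changes of 1.53, 0.48 and 1.15 (adjusted p = 0.0285, 0.0191 and 0.033). Of these, TMEM45A fell with estrogen (log2 fold change -0.93 ± 0.11, adjusted p = 1.83e-06).

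In the presence of estrogen, CoCl2 raised fewer members. In CoCl2+estrogen against estrogen, 17 of 43 members rose and 3 fell, where 8.14% of all 15925 genes tested rose and 8.85% fell. The median log2 fold change of the members was 0.34, against 0.0098 for all genes. CoCl2 against control and this comparison share no library. Across the 43 members their log2 fold changes had a Pearson coefficient (r) of 0.369 and a Spearman coefficient of 0.443 and the same sign in 32 members (74.4%), and across 15116 genes tested in both r was 0.139 and 53.5% had the same sign. Genes of one library share its depth and are not independent, so these values are a description.

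The 17 members that rose on top of estrogen were led by FAM13A (log2 fold change 2.90 ± 0.18, adjusted p = 7.1e-09), ANKRD37 (log2 fold change 1.63 ± 0.29, adjusted p = 0.000743) and BHLHE40 (log2 fold change 1.14 ± 0.058, adjusted p = 5.5e-10). All 3 mitochondrial genes were among them, with BNIP3L at 0.78 ± 0.082 (adjusted p = 3.27e-06). PLOD2 (log2 fold change 0.90 ± 0.062, adjusted p = 2.12e-08), P4HA1 (log2 fold change 0.62 ± 0.077, adjusted p = 2.19e-05), KDM3A (log2 fold change 0.84 ± 0.058, adjusted p = 2.12e-08) and NDRG1 (log2 fold change 0.86 ± 0.056, adjusted p = 9.18e-09) rose too. CITED2, MXI1, ADM, PLIN2, HILPDA, RIOX2 and ERO1A complete the list, and RIOX2 was the only one of the 17 not called with CoCl2 alone. The 3 that fell were IGFBP1 (log2 fold change -0.49 ± 0.061, adjusted p = 2.2e-05), EFNA1 (log2 fold change -0.33 ± 0.071, adjusted p = 0.00353) and WSB1 (log2 fold change -0.30 ± 0.066, adjusted p = 0.00469). EPO had 6, 12 and 7 counts with CoCl2+estrogen against 0, 2 and 3 with estrogen, and its difference did not pass the test (log2 fold change 2.24 ± 0.83, adjusted p = 0.0661). ERO1A lost its call without estrogen A or B or CoCl2+estrogen A or C (adjusted p = 0.0879 to 0.132), HILPDA without estrogen B or C (adjusted p = 0.0554 to 0.0579) and RIOX2 without CoCl2+estrogen A (adjusted p = 0.0689).

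**Figure D3:**
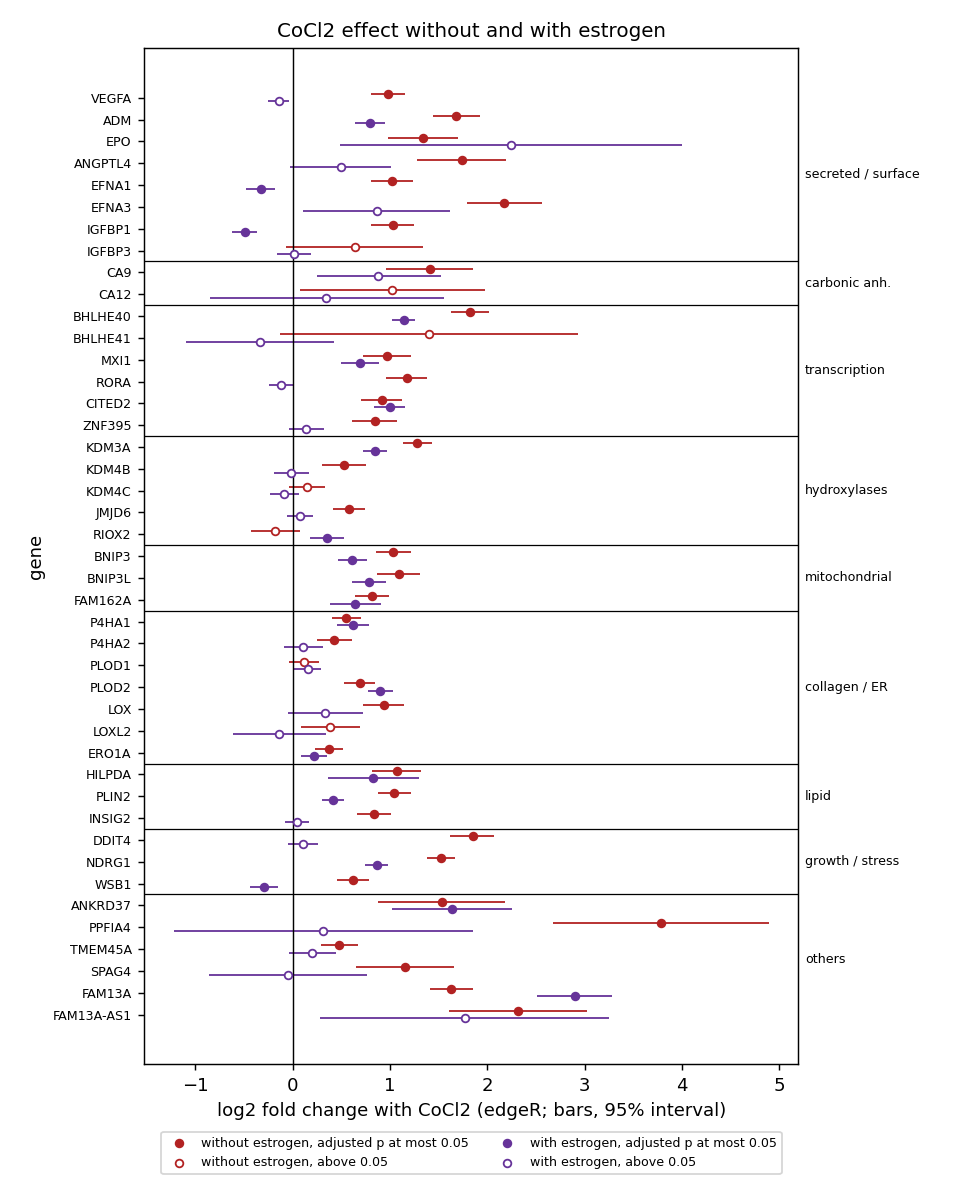
Log2 fold change with CoCl2 (horizontal axis) of each of the 43 tested members (vertical axis, by role), without estrogen (red, CoCl2 against control) and with estrogen (purple, CoCl2+estrogen against estrogen); bars are 95% intervals and filled points have an adjusted p of at most 0.05. Red points are filled for 36 members, all right of 0, and purple points for 20, of which IGFBP1, EFNA1 and WSB1 lie left of 0; the purple bar of EPO rests on 0 to 3 counts per estrogen library.

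The interaction term of a fit over all 12 libraries tested whether the CoCl2 effect, as a log2 fold change, differed with and without estrogen. For 19 members the effect was lower with estrogen and for 1 it was higher, where 3.7% of all 16681 genes tested were called lower and 2.1% higher. The median interaction was -0.54 on the log2 scale over the members and 0.012 over all genes. With library totals alone, 51.6% of all genes called had a higher effect against 36.2% with TMM, and 17 members were called lower and 2 higher. The term uses the same libraries as the comparisons above and is no second line of evidence for them.

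Growth and stress regulators (3 of 3), secreted and surface proteins (6 of 8), hydroxylases (3 of 5), transcription regulators (3 of 6), lipid genes (2 of 3), 1 of 3 mitochondrial genes and 1 of the 6 other genes had a lower CoCl2 effect with estrogen, and 0 of 7 genes for collagen modification and ER oxidation and 0 of 2 carbonic anhydrases. DDIT4 had the smallest adjusted p: its CoCl2 effect was 1.85 without and 0.11 with estrogen, an interaction of -1.75 ± 0.13 (adjusted p = 4.35e-07). VEGFA went from 0.98 to -0.15 (interaction -1.12 ± 0.093, adjusted p = 1.02e-06) and RORA from 1.17 to -0.12 (interaction -1.29 ± 0.11, adjusted p = 1.02e-06). Both were highest with estrogen alone, and the libraries with estrogen and with both agents did not overlap, although that difference did not pass the test (adjusted p = 0.0686 and 0.196). IGFBP1, EFNA1 and WSB1 turned from a rise to a fall, with interactions of -1.52 ± 0.13, -1.35 ± 0.12 and -0.91 ± 0.088 (adjusted p = 1.02e-06, 2.39e-06 and 4.56e-06). INSIG2 went from 0.84 to 0.046 (interaction -0.79 ± 0.10, adjusted p = 6.18e-05). DDIT4 and PPFIA4, on the other hand, had their highest group mean with CoCl2 alone. So did ANGPTL4, EFNA3, ZNF395, BNIP3 and KDM4B, the last with CoCl2 and estrogen libraries that overlapped.

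FAM13A was the only member called with a larger CoCl2 effect on the log2 scale in the presence of estrogen, at 2.90 against 1.63 without (interaction 1.27 ± 0.21, adjusted p = 0.000937). Its mean CPM went from 9.46 to 29.1 without and from 1.56 to 11.5 with estrogen, so its CPM gain was smaller with estrogen. RIOX2 had an interaction of 0.53 ± 0.15 that did not pass the test (adjusted p = 0.0515). BHLHE40, NDRG1, ADM, PLIN2, KDM3A and BNIP3 rose with CoCl2 in either setting. On the log2 scale they rose less with estrogen, with interactions from -0.89 (ADM) to -0.42 (BNIP3). In mean CPM, BHLHE40 went from 43.2 to 152 without and from 98.1 to 215 with estrogen. ADM went from 8.1 to 25.8 and from 29.6 to 50.9, and KDM3A from 75.8 to 183 and from 139 to 247. The CPM gain of BHLHE40, ADM and KDM3A was thus no smaller with estrogen, whereas that of NDRG1, PLIN2 and BNIP3 was. P4HA1 and CITED2 had interactions of 0.074 (95% interval -0.12 to 0.27) and 0.081 (95% interval -0.17 to 0.33), and neither passed the test. The calls of 4 members depended on single libraries. EFNA3 was lost without any one of 9 of the 12 libraries, all but CoCl2 B, estrogen B and CoCl2+estrogen B (adjusted p = 0.0616 to 0.147), and KDM4B without control A, CoCl2 A or C, estrogen B or CoCl2+estrogen A (adjusted p = 0.0612 to 0.0854). ANGPTL4 was lost without control B, CoCl2 C, estrogen A or estrogen B (adjusted p = 0.0533 to 0.0645), and PPFIA4 without control A, estrogen B, estrogen C or CoCl2+estrogen C (adjusted p = 0.0512 to 0.0876).

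**Figure D4:**
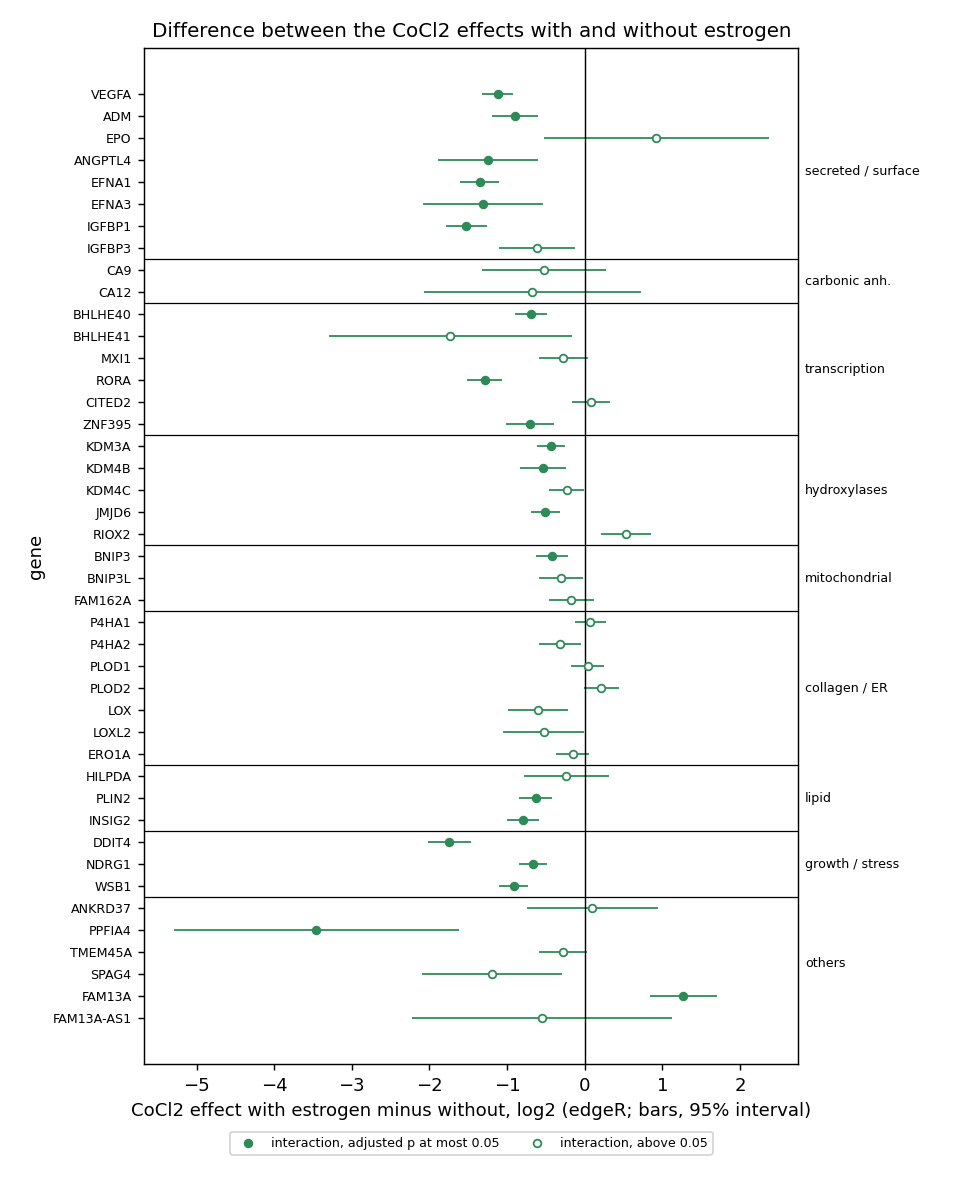
Interaction of CoCl2 and estrogen (horizontal axis, the CoCl2 effect with estrogen minus that without, on the log2 scale) for each of the 43 tested members (vertical axis, by role); bars are 95% intervals and filled points have an adjusted p of at most 0.05. Of the 20 filled points 19 lie left of 0, from -0.42 for BNIP3 to -3.46 for PPFIA4, and FAM13A lies right at 1.27.

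Estrogen on top of CoCl2 again divided the set. In CoCl2+estrogen against CoCl2, 15 members rose and 22 fell, where 30.1% of all 16200 genes tested rose and 30.8% fell, and the median of the members was -0.46. This comparison shares no library with estrogen against control. Across the 43 members r was 0.918 and the Spearman coefficient 0.887 and 34 (79.1%) had the same sign, and across 15800 genes r was 0.888 and 88.3% had the same sign, which is again a description over genes of the same libraries. DDIT4 and WSB1 rose with estrogen alone but fell when estrogen was added to CoCl2 (log2 fold change -1.14 ± 0.092, adjusted p = 2.1e-07 for DDIT4, and log2 fold change -0.21 ± 0.073, adjusted p = 0.0226 for WSB1). The call of WSB1 was lost without CoCl2+estrogen A or B (adjusted p = 0.0801 to 0.134). ANGPTL4, EFNA3, SPAG4, PPFIA4 and FAM13A-AS1, which did not pass the test with estrogen alone, fell on top of CoCl2, with PPFIA4 at -3.04 ± 0.39 (adjusted p = 1.61e-05) and EFNA3 at -1.96 ± 0.22 (adjusted p = 4.13e-06).

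IGFBP1 (log2 fold change 4.70 ± 0.090, adjusted p = 2.57e-12) and IGFBP3 (log2 fold change 4.29 ± 0.13, adjusted p = 5.32e-11) had the largest rises on top of CoCl2, and EPO (log2 fold change -4.0 ± 0.25, adjusted p = 1.88e-08) the largest fall. Of the 7 genes for collagen modification and ER oxidation, the same 6 as with estrogen alone fell, and PLOD2 differed by 0.041 (95% interval -0.11 to 0.19). All 3 mitochondrial genes fell, led by FAM162A (log2 fold change -2.24 ± 0.083, adjusted p = 2.98e-10). EFNA1 lost its call without CoCl2 B or C or CoCl2+estrogen A or B (adjusted p = 0.0728 to 0.155), BHLHE41 without CoCl2 C or CoCl2+estrogen A or C (adjusted p = 0.0529 to 0.0785), CITED2 without CoCl2 C or CoCl2+estrogen A (adjusted p = 0.092 to 0.11) and JMJD6 without CoCl2+estrogen B (adjusted p = 0.055).

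**Figure D5:**
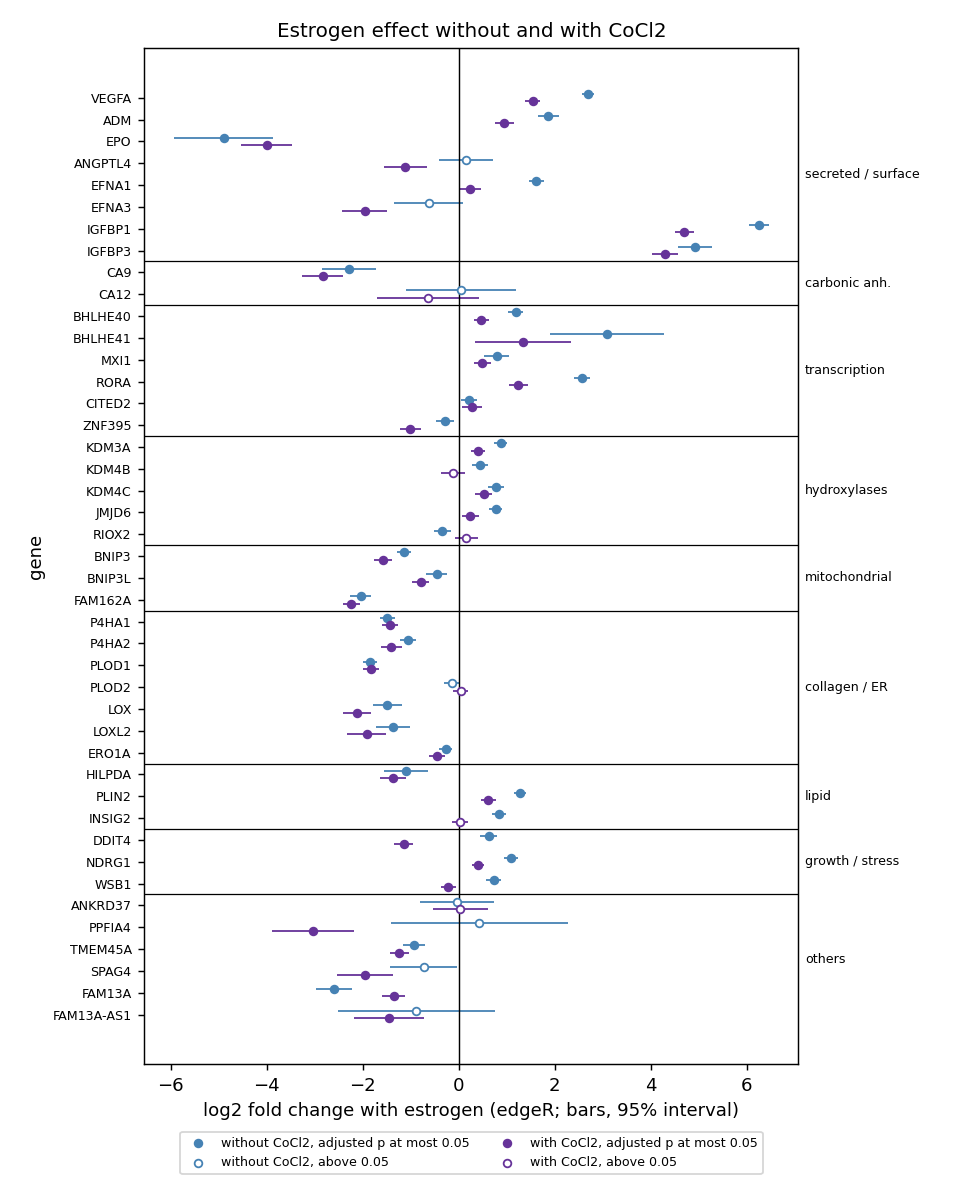
Log2 fold change with estrogen (horizontal axis) of each of the 43 tested members (vertical axis, by role), without CoCl2 (blue, estrogen against control) and with CoCl2 (purple, CoCl2+estrogen against CoCl2); bars are 95% intervals and filled points have an adjusted p of at most 0.05. Mitochondrial and collagen genes lie left of 0 in both, except PLOD2 near 0, DDIT4 and WSB1 change side, and the blue bar of EPO rests on 0 to 3 counts per estrogen library.

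With both agents against control, 23 members rose and 12 fell, where 32.3% of all 16201 genes tested rose and 33.2% fell, and the median of the members was 0.61. IGFBP1, IGFBP3, BHLHE41, ADM and VEGFA had the largest rises (5.72, 4.90, 2.72, 2.62 and 2.50), and EPO, PLOD1, LOXL2, FAM162A and CA9 had the largest falls (-2.68, -1.74, -1.54, -1.45 and -1.44). The last 5 genes ended below control with CoCl2 present, and of them PLOD1 and LOXL2 had not passed the test with CoCl2 alone. The place of BHLHE41 is not settled, because it had 1, 7 and 2 counts in the control libraries and its log2 fold change was 2.31 without control A and 3.71 without control B, where RORA had 2.40 with all libraries. BNIP3L was one of the members that ended above control (log2 fold change 0.28 ± 0.10, adjusted p = 0.0181), but without control C or CoCl2+estrogen A or C its adjusted p was 0.0539 to 0.0712. HILPDA fell by 0.31 ± 0.13 (adjusted p = 0.0496), a call lost without any one of the 6 libraries (adjusted p = 0.0754 to 0.144) and with DESeq2 (adjusted p = 0.206). ANGPTL4 was lost without control B or C or CoCl2+estrogen A or C (adjusted p = 0.0531 to 0.0855), and SPAG4 without control A or CoCl2+estrogen B (adjusted p = 0.0719 to 0.0845).

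Other genes of the pathway and of related programs were counted from lists, with no test of a list. Of the HIF subunits and oxygen sensors, 2 of 9 tested rose with CoCl2, where 1.31% of all genes did. They were the prolyl hydroxylase genes EGLN3 (log2 fold change 2.06) and EGLN1 (0.94). Both also rose with CoCl2 on top of estrogen (2.31 and 0.32), and the smaller rise of EGLN1 there was the only interaction called in the list (-0.62 ± 0.11, adjusted p = 0.00137). With estrogen, 6 of 10 tested rose and 1 fell, where 34.7% of all genes rose and 34.2% fell. In either direction 70% of the list was called, which is near the share of all genes. EPAS1, the gene of HIF2α, rose (log2 fold change 0.84 ± 0.054, adjusted p = 2.25e-09), as did ARNT2, VHL, EGLN1 and EGLN2 (1.05, 0.35, 0.32 and 0.73). HIF1A fell (-0.39 ± 0.075, adjusted p = 0.000279). HIF3A was also called higher, with 0 CPM in each control library and 0.285 to 0.891 CPM in the estrogen libraries. Of 24 glycolytic HIF targets, 11 rose and 0 fell with CoCl2, 4 rose and 16 fell with estrogen, and 16 rose and 0 fell with CoCl2 on top of estrogen. Of all genes, 1.31% rose and 0.132% fell, 34.7% rose and 34.2% fell, and 8.14% rose and 8.85% fell, in the same order. The interaction of the glycolytic targets was called lower in 3 and higher in 1, where 3.7% of all genes were called lower and 2.1% higher. The medians of the glycolytic genes were 0.35 with CoCl2, -0.71 with estrogen and 0.39 with CoCl2 on top of estrogen, where those of the non-glycolytic members were 1.02, 0.055 and 0.34. The difference between the lists was not tested.

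Targets of ATF4, the transcription factor of the integrated stress response, moved with the estrogen groups. Of 19 tested, 18 rose and 1 fell with estrogen (34.7% and 34.2% of all genes), with a median log2 fold change of 1.65. Their summed level was 7970 to 8900 CPM in estrogen libraries against 2120 to 2250 in control, 2200 to 2640 in CoCl2 and 6340 to 6640 in CoCl2+estrogen libraries. With CoCl2 alone VLDLR, STC2 and GDF15 rose, 3 of 19, and 0 fell (1.31% and 0.132% of all genes). With CoCl2 on top of estrogen 0 rose and 13 fell (8.14% and 8.85% of all genes). The CoCl2 effect was lower with estrogen in 11 and higher in 0 (3.7% and 2.1% of all genes). The 8 hepatocyte markers fell with estrogen (34.2% of all genes), with a median of -1.25. In bulk libraries of this single line, fewer cells expressing these genes and less of their RNA per cell cannot be told apart. The part of these lists in the results on the HIF targets was not tested.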

How the data were processed

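Ribosomal RNA was depleted with the Illumina Stranded Total RNA kit. According to the study's methods the authors removed ribosomal and transfer RNA reads with Bowtie, aligned what remained with STAR and quantified RefSeq transcripts in Partek Flow. The submitters' processing notes name Bowtie2 2.2.5 and STAR 2.7.8a, and list the builds hg38 and mm10 with no role. The methods name no build for HepG2. The deposited values are estimated counts of each gene, without scaling to library size, of which 23.8% differ from a whole number by any amount. They were rounded before testing. In 7 members (RIOX2, FAM162A, PLOD2, PLIN2, ANKRD37, FAM13A and FAM13A-AS1) the counts were off a whole number by more than 0.1 in at least 6 libraries, so some of their reads may be shared with other genes.

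CPM were scaled with TMM factors (0.96 to 1.06) over the 12 HepG2 libraries. Tests were edgeR 4.0.16 quasi-likelihood fits (R 4.3.3) on the 6 libraries of each comparison, or on all 12 for the interaction, with genes above 5 counts in at least 1 library and Benjamini-Hochberg adjustment over all of them. A gene was called at an adjusted p of at most 0.05. Standard errors were the log2 fold change without any added count, divided by the square root of the test's F statistic. The 95% intervals used these errors around the reported log2 fold change, which holds a small added count. Such errors are not usable where a group has no counts, as for HIF3A with estrogen. A count of 0 allows up to 3 counts, or 0.137 to 0.22 CPM, and covers counting error only. The fits were tested on simulated data. Alternatives were DESeq2 1.42.0, other scalings and filters, one fit over all libraries, a block for the replicate letter and leaving out each library.

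The members and lists were chosen with earlier results of these data known. Values in every library are given for the 2 members of each role with the smallest adjusted p under CoCl2, up to 10 called in the interaction, up to 5 called in opposite directions by the single agents, and the 5 highest and 5 lowest with both agents, which came to 28 members. Human sequences and gene lengths were not used here, so levels of the members are not compared between genes. Which marker led a list was read from CPM without correction for length. The mouse libraries of the series were not analysed here.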

Additional observations from a re-analysis of the deposited data

Results flagged for a closer look

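The effect of CoCl2 differed with and without estrogen, by the interaction term of edgeR's quasi-likelihood test over the 12 libraries, in 20 of the 43 tested members. Values are the effect with estrogen minus that without, on the log2 scale, with standard errors.

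The interaction was -1.75 ± 0.13 for DDIT4 (adjusted p = 4.35e-07), -1.52 ± 0.13 for IGFBP1 (adjusted p = 1.02e-06), -1.29 ± 0.11 for RORA (adjusted p = 1.02e-06), -1.12 ± 0.09 for VEGFA (adjusted p = 1.02e-06), -1.35 ± 0.12 for EFNA1 (adjusted p = 2.39e-06), -0.91 ± 0.09 for WSB1 (adjusted p = 4.56e-06) and -0.79 ± 0.10 for INSIG2 (adjusted p = 6.18e-05). It was -0.67 ± 0.09 for NDRG1 (adjusted p = 9.13e-05), -0.69 ± 0.10 for BHLHE40 (adjusted p = 0.00026), -0.89 ± 0.14 for ADM (adjusted p = 0.000699), -0.63 ± 0.10 for PLIN2 (adjusted p = 0.000822), -0.51 ± 0.09 for JMJD6 (adjusted p = 0.0018) and -0.44 ± 0.09 for KDM3A (adjusted p = 0.00412). It was -0.70 ± 0.15 for ZNF395 (adjusted p = 0.00693), -0.42 ± 0.10 for BNIP3 (adjusted p = 0.0169), -1.25 ± 0.31 for ANGPTL4 (adjusted p = 0.0208), -3.46 ± 0.87 for PPFIA4 (adjusted p = 0.0222), -0.54 ± 0.14 for KDM4B (adjusted p = 0.0282) and -1.31 ± 0.37 for EFNA3 (adjusted p = 0.0429). For FAM13A it was 1.27 ± 0.21 (adjusted p = 0.000937). The calls of EFNA3, KDM4B, ANGPTL4 and PPFIA4 depended on single libraries, and the other 16 held whichever library was left out. Groups of 3 libraries are too small for a test of outlying samples.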

How the results depend on the processing

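The count of members called stayed within 1.5 times its main value under every alternative: it was 30 to 36 in CoCl2 against control, 33 to 37 in estrogen against control, 32 to 36 with both agents against control, 18 to 23 and 33 to 38 with both against estrogen and against CoCl2, and 17 to 21 for the interaction. DESeq2 gave no adjusted p for PPFIA4 in the interaction. Of called log2 fold changes none changed sign. Without at least 1 of the libraries 6 of 36, 2 of 35, 4 of 35, 3 of 20, 5 of 37 and 4 of 20 calls were lost, in the same order, and under the other settings a call was lost in 27 combinations of member, comparison and setting. The replicate letters did not pair the libraries (correlations of same-lettered deviations from -0.309 to 0.288, 3 of 18 best with their own letter), and no paired design is given by the labels: with a block for the letter the counts were 36, 35, 33, 23, 37 and 19. Over all genes CoCl2 against control gave 229 calls in the pairwise edgeR fit, 345 with DESeq2 and 359 in one fit over all libraries. With 3 libraries a group and counts near 0, STC1, CA12, EPO, BHLHE41 and PPFIA4 are measured least well.

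The values that changed sign belonged to members that were not called. In estrogen against control the median of the members was -0.014 with upper-quartile scaling, -0.071 with library totals alone and -0.109 to 0.16 without single libraries, and CA12 had -0.014, -0.071 and -0.11 to 0.25. Without single libraries PPFIA4 ran from -0.072 to 0.83 and ANKRD37 from -0.15 to 0.036 there, CA12 from -0.014 to 0.66 and RIOX2 from -0.11 to 0.039 with both agents against control, and against estrogen PPFIA4 from -0.10 to 0.55, IGFBP3 from -0.033 to 0.077, CA12 from -0.028 to 0.65, LOXL2 from -0.31 to 0.018, SPAG4 from -0.38 to 0.17 and KDM4B from -0.097 to 0.057 (0.0019 with upper-quartile scaling). Against CoCl2, PLOD2 was -0.0089, INSIG2 -0.022 and ANKRD37 -0.018 with library totals alone, and INSIG2 ran from -0.0083 to 0.11 and ANKRD37 from -0.15 to 0.21. The interaction ran from -1.10 to 1.25 for FAM13A-AS1, -0.48 to 0.16 for HILPDA, -0.097 to 0.27 for ANKRD37, -0.013 to 0.14 for CITED2 and -0.046 to 0.093 for PLOD1. The cause was not tested.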
